A study of Mus musculus with 6 samples.

Results

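Collecting duct principal cells were picked out of whole-kidney single-cell suspensions by their transcripts, and 293 of 76774 deposited barcodes met the definition. A member needed at least 1000 unique molecular identifiers (UMIs, each counting 1 captured mRNA molecule), at most 50% of them from mitochondrially encoded genes, at least 3 UMIs of the water channel gene Aqp2 and at least 1 of Aqp3 and Aqp4 together. It could hold at most 1 UMI each of Slc8a1, Slc12a3 and Slc12a1, which mark the connecting tubule, the distal convoluted tubule and the thick ascending limb, and at most 0.2% of its UMIs from Lrp2, Slc34a1, Slc5a12 and Slc22a6 of the proximal tubule. Any UMI of Slc26a4, Ptprc, Pecam1 or Col1a1 (type B intercalated cell, leukocyte, endothelial cell, fibroblast) excluded a barcode. The definition is made of measured values, so levels of its genes are given as description.

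The mice were male C57BL/6 of 8 to 10 weeks in 2 groups of 3, with 1 library per mouse, and p-values measure the spread between these mice. DOCA-salt mice lost the left kidney, received a pellet of 50 mg deoxycorticosterone acetate (DOCA, a mineralocorticoid) under the skin and drank 1% NaCl for 21 days. Sham mice had a sham operation, no pellet and ordinary water. Effects of the hormone, the salt and the loss of a kidney cannot be told apart in this design. Sham mice 1 to 3 gave 68, 72 and 76 members and DOCA-salt mice 1 to 3 gave 24, 21 and 32.

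Principal cells line the collecting duct beside the acid-base transporting intercalated cells. They take up sodium through the epithelial sodium channel ENaC at the apical side and pass it to the blood by the Na,K-ATPase, secrete potassium through ROMK, and take up water through aquaporin 2 at the apical side and aquaporins 3 and 4 at the basal side. Aldosterone acts on them through the mineralocorticoid receptor, which the enzyme 11β-hydroxysteroid dehydrogenase 2 shields from glucocorticoids, and vasopressin acts through its V2 receptor. DOCA binds the same mineralocorticoid receptor.

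A pair of principal cell markers outside the definition were high in the members, as the cell type label requires. Fxyd4, a regulator of the Na,K-ATPase, stood at 8834, 9173 and 7044 CPM (UMI counts per 1000000 UMIs of all members of a mouse) in the sham mice and 7496, 6051 and 5506 in the DOCA-salt mice, against 136 to 199.99 in all other barcodes of any mouse. Hsd11b2, the glucocorticoid-inactivating enzyme, stood at 2199, 3014 and 2404 against 3194, 1582 and 2677, and at 88.1 to 241 in all other barcodes. Both markers were therefore far above the remaining barcodes in each of the 6 libraries, and their group ranges overlapped. Aqp2, used by the definition, was 11725, 8656 and 10173 CPM in sham members and 7712, 10073 and 5434 in DOCA-salt members.

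Members just inside the Aqp2 threshold were few. Exactly 3 Aqp2 UMIs were found in 1, 1 and 0 sham members and 0, 1 and 3 DOCA-salt members. Just outside it, 7, 1 and 5 sham barcodes and 1, 0 and 0 DOCA-salt barcodes met every other condition with 2 Aqp2 UMIs. With 1 Aqp2 UMI there were 25, 8 and 23 sham barcodes and 10, 15 and 8 DOCA-salt barcodes. In these, Fxyd4 stood at 141, 299 and 94.0 CPM in sham mice and 5.20, 6.93 and 195 in DOCA-salt mice, below the members. The setting in which 1 Aqp2 UMI sufficed adds all these barcodes, so it also changes which cells are compared.

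Transcripts of other cells were measured in the members as well. Summed levels of 9 intercalated cell markers were 966, 13.0 and 661 CPM in sham members and 14.8, 1042 and 1190 in DOCA-salt members, so sham mouse 2 and DOCA-salt mouse 1 stood apart from the other 4, and Slc26a4 was at 0 by definition. The 8 proximal tubule markers summed to 2692, 1064 and 3193 against 1225, 918 and 1323, with overlapping ranges. Macrophage markers, 8 genes, summed to 17.3 to 40.6 against 86.4 to 98.9, and 7 fibroblast markers to 1.58 to 8.15 against 24.6 to 108, with Col1a1 and Pdgfra at 0; in all other barcodes the same fibroblast sum was 52.9 to 93.7 in sham mice and 1131 to 2026 in DOCA-salt mice. In refits of the gene comparison described below, 43 of its 52 calls were kept with the estimated free RNA subtracted (25 genes higher, 27 lower), and 45 with members holding 2 or more UMIs of the intercalated gene Atp6v1g3 left out. The free RNA estimate came from proximal markers, and the definition limits proximal transcripts, so this subtraction depends on the selection.

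Libraries held 93172739 to 137819127 UMIs, and the members held 613172 to 634449 in sham mice and 185244 to 262964 in DOCA-salt mice. The median member carried 9243, 7839.5 and 8279.5 UMIs in sham mice and 8753.5, 7073 and 6575 in DOCA-salt mice, with a median mitochondrial share of 7.95 to 12.4% against 11.2 to 18.7%. The upper quartile of that share was 16.1, 17.3 and 18.2% in sham mice and 24.0, 30.9 and 34.2% in DOCA-salt mice. The lower quartile of member UMIs was 6524.5, 4817 and 5231.25 against 3285, 3836 and 3671.25. A limit of 20% mitochondrial UMIs left 56, 57 and 59 sham and 15, 11 and 17 DOCA-salt members. A refit on these kept 36 of the 52 calls of the gene comparison below. An estimate of free RNA from the proximal transcripts in the members put it at 5.91 to 15.2% of their UMIs in sham mice and 6.75 to 10.4% in DOCA-salt mice. The profile used was that of all deposited barcodes summed. The estimate is tied to the proximal limit of the definition. That limit kept 85.7, 92.9 and 89.5% of the sham barcodes that reached it and 93.1, 76.7 and 97.6% of the DOCA-salt barcodes. Between 33 and 69 barcode sequences were shared by any pair of libraries.

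Principal cells made up a smaller share of the kidney suspension in every DOCA-salt mouse. Of the barcodes with at least 1000 UMIs and at most 50% mitochondrial UMIs, members were 0.765, 0.999 and 0.875% in sham mice, with Wilson 95% intervals of 0.604 to 0.968, 0.794 to 1.26 and 0.700 to 1.09% for counting error only. In DOCA-salt mice they were 0.276, 0.230 and 0.385%, with intervals of 0.185 to 0.410, 0.151 to 0.352 and 0.273 to 0.543%. The means were 0.880% ± 0.117 (SD, n = 3) and 0.297% ± 0.0793 (SD, n = 3), a log2 ratio of -1.57, and the ranges did not overlap. The exact two-sided permutation test gave p = 0.1, the smallest value that 3 mice against 3 can give.

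Set against intercalated cells, the acid-base transporting neighbours in the same duct, the share was lower too. Intercalated cells were barcodes with at least 2 UMIs of the proton pump subunit gene Atp6v1g3 and at most 2 of Aqp2 that met the exclusions of the definition other than those on Slc8a1 and Slc26a4, and they numbered 212, 184 and 215 in sham mice and 229, 207 and 275 in DOCA-salt mice. Members were 24.3, 28.1 and 26.1% of principal and intercalated cells together in sham mice and 9.49, 9.21 and 10.4% in DOCA-salt mice (exact permutation p = 0.1, the smallest possible with n = 3 per group). Connecting tubule cells, defined below, also numbered fewer in DOCA-salt mice, at 119, 90 and 86 against 156, 215 and 222 in sham mice. The lower share was therefore not particular to principal cells.

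The size of the difference in shares moved with the settings. Slc8a1, the sodium-calcium exchanger of the connecting tubule, was higher in all other barcodes of DOCA-salt mice (545 to 630.0 CPM) than of sham mice (272 to 457). The limit of 1 UMI kept 25.3, 20.9 and 21.3% of the sham barcodes that had reached that step and 15.5, 12.7 and 21.9% of the DOCA-salt barcodes. Without it the share was 3.39% in sham mice and 1.38% in DOCA-salt mice on average, a log2 ratio of -1.30. Barcodes with 2 or more Slc8a1 UMIs that met the rest of the definition averaged 2.51 and 1.08%, a log2 ratio of -1.22. With every barcode thinned to 1000 UMIs before the definition was applied, the means were 1.87% ± 0.158 (SD, n = 3) and 0.961% ± 0.0112 (SD, n = 3), a log2 ratio of -0.96. Then 711 barcodes met the definition in place of 293. Thinning with no limit on Slc8a1 gave means of 2.14 and 1.15%, so at that depth the limit left out few barcodes. With at most 20% mitochondrial UMIs, the means were 1.34% ± 0.223 (SD, n = 3) and 0.293% ± 0.0717 (SD, n = 3), a log2 ratio of -2.20. The groups stayed apart in each of these cases. How many cells of each type survive dissociation was not measured, so the share is one of captured barcodes.

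**Figure D1:**
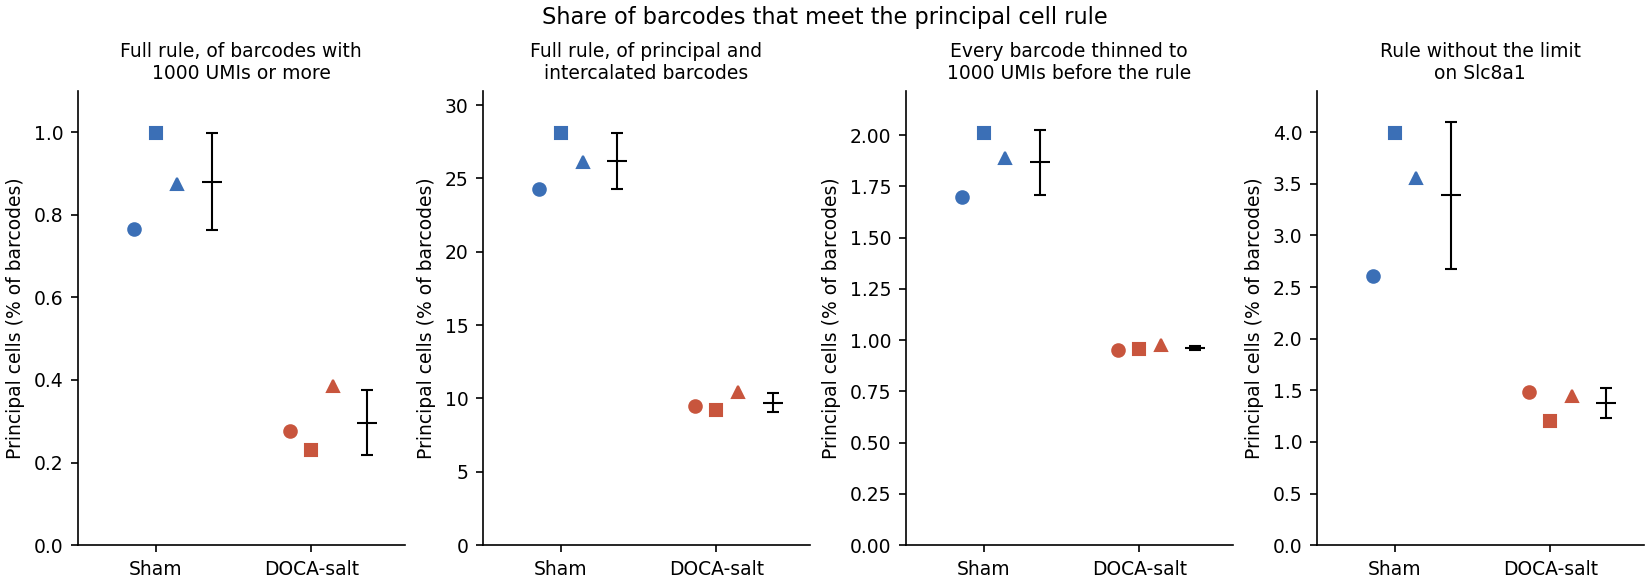
Percent of barcodes in each mouse that met the principal cell definition or a variant of it. From left to right, the panels give the definition, its share of principal and intercalated cells together, thinning to 1000 UMIs, and no Slc8a1 limit. The panels with thinning and with no limit also count barcodes that the definition leaves out. Circles, squares and triangles are mice 1, 2 and 3 of each group, and bars give the mean and SD. Under the definition the sham mice lie between 0.765 and 0.999% and the DOCA-salt mice between 0.230 and 0.385%, and the groups do not overlap in any panel.

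For gene expression the UMIs of all members of a mouse were summed and the 6 sums were compared with edgeR's quasi-likelihood test. After a filter on low counts 6274 genes were tested, and 52 of them, or 0.829%, passed a Benjamini-Hochberg adjusted p of 0.05. In DOCA-salt mice 30 were higher (0.478%) and 22 were lower (0.351%). Among genes averaging at least 20 CPM the largest rises were in Spp1 and Krt19, and the largest falls were in Kcne1 and Il1rapl1. In this fit no gene of the ENaC, aldosterone, sodium pump, potassium or water lists passed. These lists are too short to be read against the 0.829%. At an unadjusted p of 0.05 there were 698 genes (11.1%), and 1038 (16.5%) had groups that did not overlap, 6.69% of all tested with DOCA-salt above and 9.85% with DOCA-salt below. Of the 52, 8 also passed in each of 21 other settings that gave them a value, among them Spp1, Spink8, S100a14, Flvcr1, Kcne1, Il1rapl1 and Slit2. Of these 8, 2 (Spp1 and Spink8) had a value in all 21. With the 15 sham and 7 DOCA-salt members that held 2 or more UMIs of the intercalated gene Atp6v1g3 left out, 32 genes were higher and 31 lower. Leaving out 1 mouse at a time gave 8 higher and 6 lower without DOCA-salt mouse 3, 10 and 9 without sham mouse 1, 15 and 10 without DOCA-salt mouse 2, 17 and 13 without sham mouse 3, 35 and 21 without DOCA-salt mouse 1, and 37 and 37 without sham mouse 2.

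**Figure D2:**
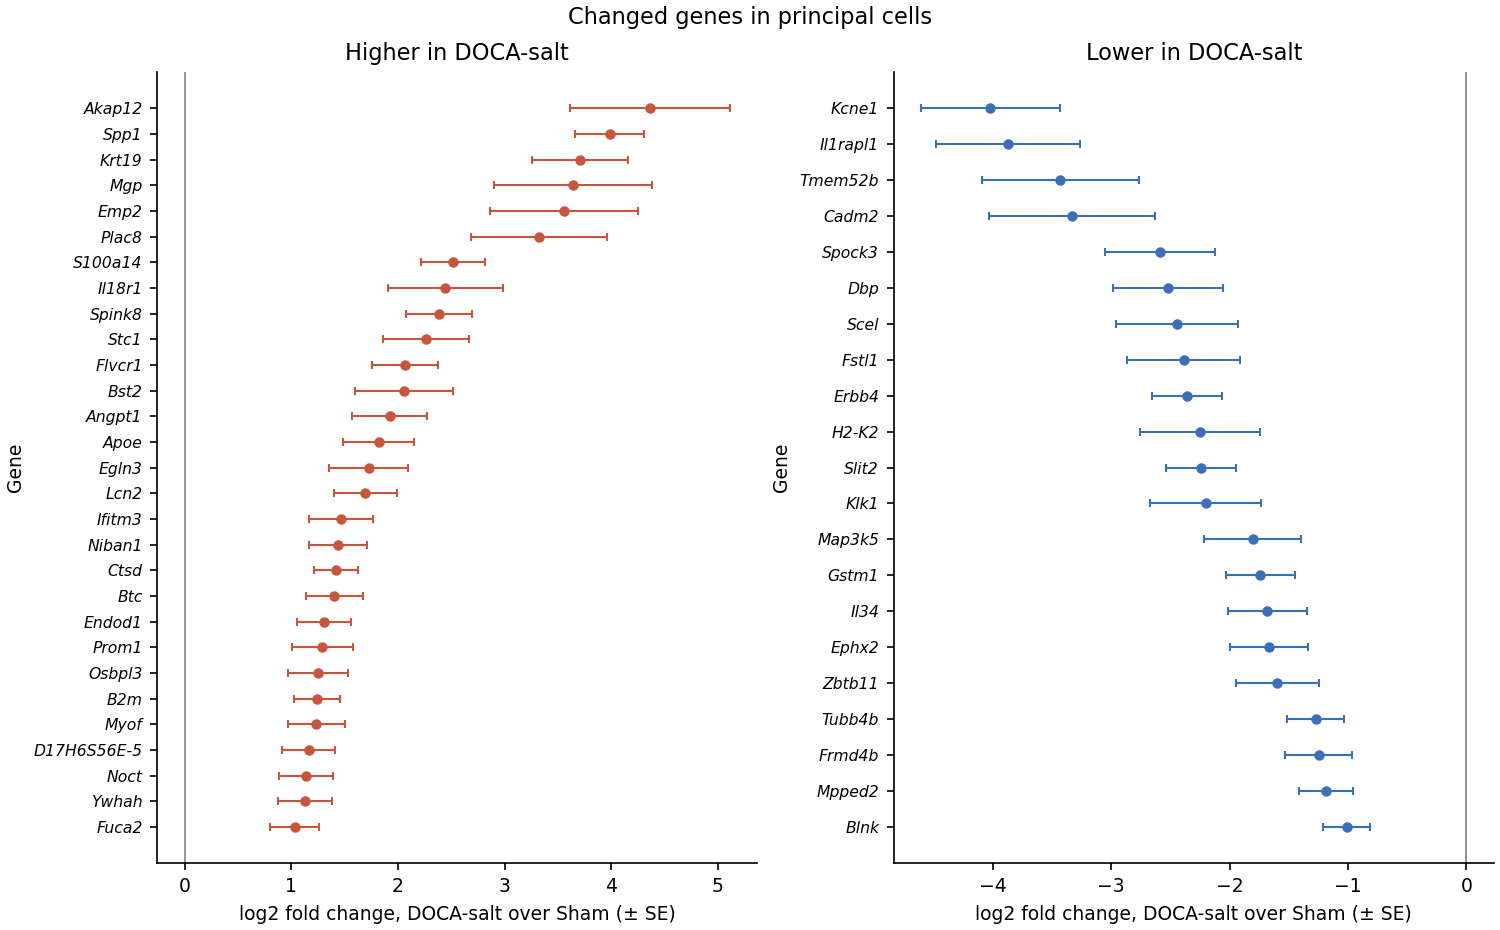
Log2 change from sham to DOCA-salt, with its standard error from edgeR, for the genes of principal cells that passed an adjusted p of 0.05. The left panel holds 29 of the 30 genes higher in DOCA-salt mice and the right panel 21 of the 22 that were lower, and the values of Akap12, Kcne1, Il1rapl1, Tmem52b and Cadm2 rest on at most 3 UMIs in 1 of the groups.

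Promoters are shown for the 4 of these 8 genes that the RefSeq table held, so that the sequence before them can be read. Each is the 250 bases before the gene start in build GRCm38.p6. The regions are chr5:104434861-104435110 on the plus strand for Spp1 (the first of 2 listed starts), chr1:191026191-191026440 on the minus strand for Flvcr1, chr5:47982905-47983154 on the plus strand for Slit2 and chrX:88115949-88116198 on the minus strand for Il1rapl1. Capitals mark a CCAAT box or a TATAAA box on either strand.
Spp1: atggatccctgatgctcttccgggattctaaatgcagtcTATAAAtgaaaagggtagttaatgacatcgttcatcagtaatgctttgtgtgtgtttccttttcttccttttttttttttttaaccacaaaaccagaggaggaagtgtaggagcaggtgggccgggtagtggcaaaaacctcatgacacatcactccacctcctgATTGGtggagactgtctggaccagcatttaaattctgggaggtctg
Flvcr1: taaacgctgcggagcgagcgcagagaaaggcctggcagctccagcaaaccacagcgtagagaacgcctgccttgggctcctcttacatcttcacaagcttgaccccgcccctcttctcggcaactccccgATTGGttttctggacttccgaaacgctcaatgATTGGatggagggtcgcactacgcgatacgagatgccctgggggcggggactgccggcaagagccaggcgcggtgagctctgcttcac
Slit2: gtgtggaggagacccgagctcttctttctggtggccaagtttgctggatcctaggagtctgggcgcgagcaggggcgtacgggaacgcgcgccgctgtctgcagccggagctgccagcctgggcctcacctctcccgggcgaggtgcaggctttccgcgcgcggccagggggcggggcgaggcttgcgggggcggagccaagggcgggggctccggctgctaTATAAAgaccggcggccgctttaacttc
Il1rapl1: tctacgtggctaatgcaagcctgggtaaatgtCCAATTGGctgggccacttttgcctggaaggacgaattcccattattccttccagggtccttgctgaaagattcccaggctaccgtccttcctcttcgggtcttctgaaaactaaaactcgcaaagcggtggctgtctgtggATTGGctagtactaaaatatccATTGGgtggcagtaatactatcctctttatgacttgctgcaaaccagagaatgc
Spp1 and Slit2 each held 1 TATAAA match, a sequence held by 13.0% of all 27025 promoters of the same length and by 6.06% of the 5046 that belong to tested genes. CCAAT was matched 1 time before Spp1, 2 times before Flvcr1 and 4 times before Il1rapl1, where 2 of the matches overlap, and in 34.5% of all promoters and 36.3% of those of tested genes. None of the 4 held AGAACA (part of the steroid receptor element, in 16.2% of all promoters and 9.43% of those of tested genes), TGANTCA (an AP-1 site, in 6.87 and 3.88%) or TGGAAA (the core of a tonicity element, in 18.7 and 14.2%) on either strand. AGAACA was found before 2 of the 21 higher genes with a promoter in the table (9.52%) and before 2 of the 17 lower genes (11.8%). These counts describe letters in a window and say nothing of what binds there.

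Spp1, which encodes the secreted matrix protein osteopontin, had the largest rise among the called genes averaging at least 20 CPM. It lies in GRCm39 on chromosome 5 from 104582165 to 104589235 on the plus strand. Its level was 136, 258 and 334 CPM in sham members and 5271, 2699 and 3772 in DOCA-salt members, so the lowest DOCA-salt mouse was above the highest sham mouse by a wide margin. The log2 change was 3.99 ± 0.32 (SE, edgeR adjusted p = 4.76e-06). A UMI of Spp1 was found in 139 of 216 sham members and 75 of 77 DOCA-salt members.

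Spp1 was also high among the other barcodes, at 792 to 1483 CPM in sham mice and 3074 to 5476 in DOCA-salt mice. The members of DOCA-salt mice 1 and 3 lay within the range of these other DOCA-salt barcodes, and those of mouse 2 below it. At a fixed depth of 1000 UMIs it was found in 8.82, 25 and 19.7% of sham members and 41.0, 56.4 and 41.9% of sham proximal tubule cells (barcodes with at least 1% of UMIs from the 4 proximal genes of the definition), against 83.3, 81.0 and 93.8% of members and 80.9, 72.6 and 91.5% of proximal tubule cells in DOCA-salt mice. At that depth Spp1 was thus found in a smaller share of sham members than of sham proximal cells. In DOCA-salt mice the shares were about alike, and shares this high cannot show how the levels compare. With the estimated free RNA subtracted the log2 change was 4.55. Without the Slc8a1 limit, which lets connecting tubule cells in, it was 1.03.

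Other secreted proteins rose with it. Spink8, a Kazal-type protease inhibitor, was 295, 192 and 181 CPM in sham members and 979, 1814 and 730.1 in DOCA-salt members (log2 change 2.39 ± 0.31 SE, adjusted p = 0.000811, edgeR), and it was found in 101 of 216 and 64 of 77 members. In all other barcodes it was 44.9 to 73.5 and 69.0 to 75.4 CPM, while in connecting tubule cells it passed with a smaller rise (log2 change 0.63, adjusted p = 0.0483, edgeR) and in type A intercalated cells the log2 change was 0.70 (adjusted p = 0.072, edgeR). Lcn2, the iron-siderophore binding protein NGAL and a marker of tubular injury, was 523, 231 and 313 against 1088, 1566 and 829 (log2 change 1.69 ± 0.29 SE, adjusted p = 0.0108, edgeR), in 138 of 216 and 65 of 77 members. Its groups did not overlap, and its call was lost without DOCA-salt mouse 2 (log2 change 1.40).

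Signalling proteins among the rises included ligands, a hormone and a receptor. Angpt1, a ligand of the endothelial receptor Tie2, was 25.2, 21.1 and 34.2 CPM in sham members and 59.1, 113 and 133 in DOCA-salt members (log2 change 1.92 ± 0.35 SE, adjusted p = 0.0141, edgeR). Btc, a ligand of the EGF receptor family, was 227, 135 and 256 against 408, 648 and 589 (log2 change 1.40 ± 0.27 SE, adjusted p = 0.0174, edgeR). Both showed no overlap between groups, and Angpt1 had a log2 change of -0.25 without the Slc8a1 limit. Stc1, the hormone stanniocalcin, was 14.2, 11.4 and 11.4 against 73.8, 32.4 and 72.3 (log2 change 2.26, adjusted p = 0.0127, edgeR). The interleukin 18 receptor chain Il18r1 was 4.73, 9.75 and 4.89 against 24.6, 37.8 and 45.6 (log2 change 2.45, adjusted p = 0.0417, edgeR). Neither Stc1 nor Il18r1 had overlapping groups.

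Krt19, S100a14, Plac8 and Akap12 rose from low levels. Krt19, a keratin of simple epithelia found at low level in resting tubules, was 6.30, 4.87 and 11.4 CPM in sham members and 54.1, 103 and 145 in DOCA-salt members (log2 change 3.71 ± 0.45 SE, adjusted p = 0.000569, edgeR). It was detected in 14 of 216 sham members and 28 of 77 DOCA-salt members, and its call was lost when 1 Aqp2 UMI sufficed (log2 change 1.18). S100a14, a calcium-binding protein of epithelia, was 22.1, 32.5 and 17.9 against 157, 119 and 145 (log2 change 2.52 ± 0.30 SE, adjusted p = 0.000569, edgeR). Both genes were at most 16.6 CPM in the pool of all other barcodes of any mouse, but not in connecting tubule cells. There Krt19 was 2.76, 2.78 and 1.41 in sham mice and 57.2, 210.2 and 203 in DOCA-salt mice, and S100a14 was 13.8, 19.5 and 8.48 against 109.6, 97.4 and 193, both past the threshold (adjusted p = 4.1e-05 and 3.72e-05, edgeR). Plac8 was 0, 9.75 and 4.89 against 29.5, 43.2 and 76.1 (log2 change 3.32, adjusted p = 0.0174, edgeR). Akap12, a scaffold for protein kinase A, had 3 UMIs in sham members and 26 in DOCA-salt members, a ratio of 24.8 with a counting interval of 7.60 to 128 (edgeR adjusted p = 0.0102). Counting intervals here and below pool the UMIs of a group. They treat each UMI as independent and leave out the spread between members and mice. The rise of Akap12 and Plac8 rests on few molecules.

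Ctsd, Flvcr1, B2m, Ifitm3 and Bst2 were also among the rises. Ctsd, the lysosomal protease cathepsin D, was 353, 385 and 378 CPM in sham members and 861, 988 and 1156 in DOCA-salt members (log2 change 1.42 ± 0.21 SE, adjusted p = 0.00214, edgeR). Flvcr1, a transporter of heme and choline, was 18.9, 32.5 and 35.9 against 118, 113 and 137 (log2 change 2.07 ± 0.31 SE, adjusted p = 0.00219, edgeR). In both, the 3 DOCA-salt mice lay close together and well above the sham mice. Flvcr1 was found in 39 of 216 sham and 26 of 77 DOCA-salt members, and 1 barcode gave 52.4% of its UMIs in DOCA-salt mouse 2. B2m, the light chain of MHC class I, was 94.6, 104 and 97.9 against 246, 199.7 and 259 (log2 change 1.24, adjusted p = 0.0108, edgeR). Ifitm3, an interferon-induced membrane protein, was 63.0, 30.9 and 47.3 against 113, 140.4 and 140.7 (log2 change 1.47, adjusted p = 0.0231, edgeR). In all other barcodes B2m was 132 to 173 against 312 to 399 and Ifitm3 84.3 to 182 against 187 to 422, the same direction. Bst2, also interferon-induced, passed with overlapping groups, at 22.1, 24.4 and 14.7 against 153, 21.6 and 83.7 (adjusted p = 0.0445, edgeR).

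Apoe and Mgp are carried in abundance by other cells of the DOCA-salt kidney. Apoe, the lipid carrier apolipoprotein E, was 20.5, 17.9 and 26.1 CPM in sham members and 68.9, 91.8 and 72.3 in DOCA-salt members (log2 change 1.82, adjusted p = 0.0141, edgeR), and 169 to 240.3 against 833 to 1319.5 in all other barcodes. Mgp, a calcification inhibitor of matrix on the fibroblast marker list, was 0, 1.62 and 6.52 against 24.6, 59.4 and 30.4 (log2 change 3.64, adjusted p = 0.0239, edgeR), and 38.9 to 47.9 against 776 to 1424 in all other barcodes. Both changes ran beside the same direction in the rest of the suspension. Mgp fell below the count filter once free RNA was subtracted, and its call was lost without DOCA-salt mouse 2 (log2 change 3.22) or 3 (3.79).

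Falls were led by a channel subunit. Kcne1, a regulatory subunit of the potassium channel KCNQ1, was 63.0, 106 and 68.5 CPM in sham members and 0, 10.8 and 3.80 in DOCA-salt members. It had 147 UMIs in 52 of 216 sham members and 3 UMIs in 2 of 77 DOCA-salt members, so sham exceeded DOCA-salt by a ratio of 17.1 with a counting interval of 5.75 to 84.0 (edgeR adjusted p = 0.00214). In connecting tubule cells its mean was 320.2 in sham mice and 68.0 in DOCA-salt mice.

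Il1rapl1, Cadm2, Slit2 and Spock3 were also lower. Il1rapl1, of the interleukin 1 receptor family, had 132 UMIs among sham members against 3 among DOCA-salt members, a ratio of 15.4 with a counting interval of 5.15 to 75.5 (edgeR adjusted p = 0.00403). Cadm2, a cell adhesion molecule, had 62 against 2 UMIs, a ratio of 10.8 with an interval of 2.88 to 91.5 (edgeR adjusted p = 0.0323). Both were represented by at most 3 UMIs in the DOCA-salt members of all mice together. The Cadm2 call was lost without DOCA-salt mouse 1, 2 or 3, and the fits without a sham mouse gave it no value. Slit2, the secreted ligand of Robo receptors, was 165, 195 and 142 CPM against 29.5, 43.2 and 34.2 (log2 change -2.24 ± 0.30 SE, adjusted p = 0.000885, edgeR). Spock3, a secreted proteoglycan, was 50.4, 86.1 and 60.3 against 14.8, 5.40 and 11.4 (log2 change -2.59, adjusted p = 0.0127, edgeR). Slit2 and Spock3 each share part of their span with other gene models on the same strand, which counting by gene may split.

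Erbb4, Il34 and Fstl1 were also among the falls. Erbb4, the neuregulin receptor kinase, was 288, 301 and 276 CPM in sham members and 78.7, 21.6 and 64.6 in DOCA-salt members (log2 change -2.36 ± 0.30 SE, adjusted p = 0.000644, edgeR). The sham mice lay within a narrow band, and in all other barcodes Erbb4 was 234 to 318 in sham and 361 to 381 in DOCA-salt mice, the opposite order. Its call was lost when 1 Aqp2 UMI sufficed (log2 change -0.30) and after thinning (-1.84). Il34, a ligand of the macrophage receptor CSF1R, was 121, 97.5 and 130.5 against 29.5, 21.6 and 53.2 (log2 change -1.68 ± 0.33 SE, adjusted p = 0.0205, edgeR), with a log2 change of 0.10 without the Slc8a1 limit and -0.20 with 1 Aqp2 UMI. Fstl1, a secreted glycoprotein, was 61.5, 63.4 and 47.3 against 4.92, 21.6 and 7.61 (log2 change -2.39, adjusted p = 0.0207, edgeR).

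Enzymes, a clock gene and other falls completed the list. Gstm1, a glutathione transferase, was 463, 331 and 303 CPM in sham members and 148, 129.6 and 60.8 in DOCA-salt members (log2 change -1.74, adjusted p = 0.0082, edgeR). Ephx2, the soluble epoxide hydrolase, was 113, 145 and 93.0 against 54.1, 27.0 and 30.4 (log2 change -1.67, adjusted p = 0.0192, edgeR). Dbp, a clock output transcription factor, was 128, 185 and 62.0 against 14.8, 32.4 and 19.0 (log2 change -2.52 ± 0.46 SE, adjusted p = 0.0141, edgeR). No group of these 3 overlapped, and the hour of tissue collection was not part of the labels. Scel, the cornified envelope protein sciellin, was 91.4, 56.9 and 53.8 against 19.7, 0 and 15.2 (log2 change -2.45, adjusted p = 0.033, edgeR). Klk1, tissue kallikrein and a connecting tubule product, was 85.1, 48.7 and 119 against 14.8, 10.8 and 26.6 (log2 change -2.20, adjusted p = 0.0336, edgeR). Klk1 fell in connecting tubule cells as well, from a mean of 9674 to 1770. Its log2 change was 1.13 when 1 Aqp2 UMI sufficed, which adds barcodes outside the definition. The 5 connecting tubule markers together summed to 409 to 682 CPM in sham members and 270 to 418 in DOCA-salt members. Blnk, an adaptor of B cell receptor signalling, had 1291, 1491 and 1406 against 763, 723 and 612 (log2 change -1.01, adjusted p = 0.0192, edgeR). Tmem52b had 97 UMIs among sham members against 3 among DOCA-salt members, a ratio of 11.3 with an interval of 3.76 to 55.8 (edgeR adjusted p = 0.0182). H2-K2, with a log2 change of -2.25 (adjusted p = 0.0472, edgeR), is one of a family of near-identical MHC class I genes, and its counts are uncertain. Its call was lost whichever of the 6 mice was left out.

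How far single mice carried these calls differed between genes. Spp1, Krt19, S100a14, Spink8, Ctsd, Flvcr1, Erbb4, Slit2, Kcne1 and Il1rapl1 were among the 11 of the 52 genes that stayed past the threshold whichever of the 6 mice was left out. In 40 genes the call was lost at least once, and each of them kept its direction in every such fit. Without DOCA-salt mouse 3 the calls of 38 genes were lost, including Gstm1, B2m, Stc1, Spock3, Angpt1, Apoe, Dbp, Btc, Plac8, Tmem52b, Ephx2, Blnk, Fstl1, Ifitm3, Scel, Klk1 and Il18r1. Without DOCA-salt mouse 2 it was 33 genes, again with Spock3, Angpt1, Apoe, Btc, Plac8, Ephx2, Blnk, Ifitm3, Scel, Klk1 and Il18r1, and with Lcn2 and Il34. Without DOCA-salt mouse 1 it was 15. Without sham mouse 1, 2 or 3 it was 29, 5 and 20, of the 47, 46 and 46 genes with a value in those fits. Over these fits the log2 change ran from 1.63 to 2.22 for Angpt1 and from 1.14 to 1.33 for B2m. For Gstm1 it ran from -1.98 to -1.43, for Dbp from -2.86 to -2.12 and for Klk1 from -2.72 to -1.84. Akap12 could be tested in 2 of the 6 fits. When 1 Aqp2 UMI sufficed, calls lost included those of Gstm1 (log2 change -0.51), Ephx2 (-0.80), Angpt1 (1.08), Ifitm3 (0.52), Ctsd (0.99), Btc (0.99), B2m (1.15) and Niban1 (0.86).

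**Figure D3:**
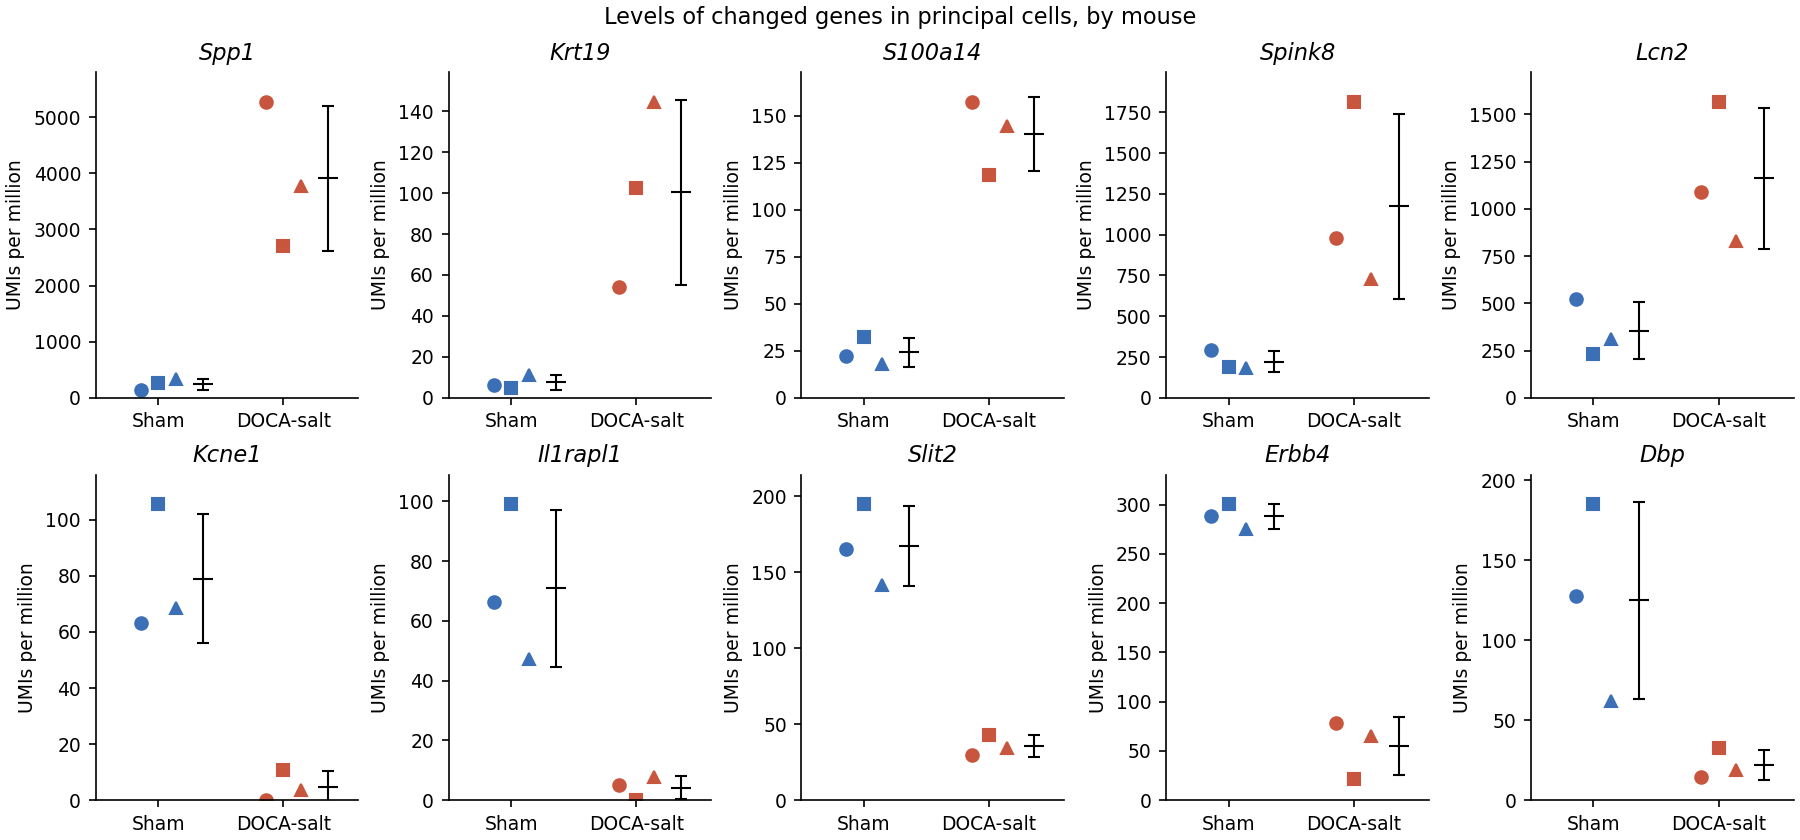
CPM of the members in each mouse, on linear axes from 0, for 10 genes of the called set, Spp1, Krt19, S100a14, Spink8, Lcn2, Kcne1, Il1rapl1, Slit2, Erbb4 and Dbp; circles, squares and triangles are mice 1, 2 and 3, and bars give the mean and SD. The sham and DOCA-salt mice do not overlap in any of the 10 panels.

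Of the genes of ENaC and its regulators 0 of 14 tested passed, beside 0.829% of all genes tested, with a median log2 change of -0.16 beside -0.07 over all genes tested. Scnn1a, the α subunit of the channel, was 257, 299 and 269 CPM in sham members and 339.6, 275 and 365 in DOCA-salt members (log2 change 0.24 ± 0.21 SE, adjusted p = 0.74, edgeR). Scnn1b, the β subunit, was 285, 192 and 356 against 207, 238 and 179 (log2 change -0.44 ± 0.26 SE, adjusted p = 0.581, edgeR). The α and β subunits overlapped between groups. Scnn1g, the γ subunit, was 162, 195 and 184 against 78.7, 97.2 and 118 (log2 change -0.87 ± 0.24 SE, unadjusted p = 0.00231, adjusted p = 0.139, edgeR). Its groups did not overlap, as for 16.5% of all genes, and it missed the adjusted threshold. Nedd4l, the ubiquitin ligase that retrieves the channel, was 643, 781 and 820.3 against 482, 432 and 555 (log2 change -0.62, adjusted p = 0.262, edgeR), also without overlap.

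Of 15 genes for hormone receptors and their response 12 were tested, and 0 of 12 were called beside 0.829% of all genes tested, with a median log2 change of -0.22 beside -0.07. Nr3c2, the mineralocorticoid receptor, was 416, 549 and 530.0 CPM in sham members and 261, 340.1 and 357 in DOCA-salt members (log2 change -0.65 ± 0.22 SE, adjusted p = 0.272, edgeR). Hsd11b2 had a log2 change of -0.05 ± 0.24 (SE, adjusted p = 0.97, edgeR). The aldosterone-induced kinase Sgk1 was 164, 214 and 68.5 against 177, 157 and 164 (log2 change 0.15, adjusted p = 0.918, edgeR), and Tsc22d3, the steroid-induced leucine zipper GILZ, was 64.6, 107 and 55.4 against 148, 32.4 and 106 (log2 change 0.35, adjusted p = 0.799, edgeR). Sgk1 and Tsc22d3 varied more within a group than between the groups. Klf9, a steroid-responsive transcription factor, was 156, 185 and 204 against 143, 103 and 64.6 (log2 change -0.85, adjusted p = 0.224, edgeR).

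Of the tested genes, 0 of 5 passed for the sodium pump, 0 of 11 for potassium and chloride and 0 of 9 for water and vasopressin, lists too short to be read against a call rate of 0.829%. Atp1b1, the β1 subunit of the Na,K-ATPase, was 2226, 2071 and 2200.0 CPM in sham members and 2854, 2974 and 3038 in DOCA-salt members (log2 change 0.44 ± 0.19 SE, adjusted p = 0.397, edgeR). Its level was higher in each DOCA-salt mouse without passing. Kcnj1, the secretory channel ROMK, was 154, 198 and 124 against 157, 189 and 110.3 (log2 change -0.09, adjusted p = 0.945, edgeR). Kcnk1, the potassium leak channel TWIK1, was 150, 86.1 and 152 against 182, 362 and 175 (log2 change 0.86 ± 0.30 SE, adjusted p = 0.272, edgeR). Avpr2, the V2 receptor, was 394, 253 and 313 against 290.4, 286 and 251 (log2 change -0.23, adjusted p = 0.775, edgeR). ROMK and the V2 receptor overlapped between groups.

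Of 10 tested osmolyte genes 0 passed, too few to be read against 0.829% of all genes tested. Their log2 changes ran from -0.79 to 1.62 with a median of 0.56, beside -0.07 over all genes tested. Slc5a3, the myo-inositol transporter, was 9.46, 22.7 and 42.4 CPM in sham members and 78.7, 97.2 and 60.8 in DOCA-salt members (log2 change 1.62 ± 0.43 SE, unadjusted p = 0.00153, adjusted p = 0.104, edgeR). Akr1b3, the aldose reductase that makes sorbitol, was 199, 383 and 274 against 413, 469.7 and 681 (log2 change 0.87 ± 0.26 SE, adjusted p = 0.194, edgeR), and Slc6a6, the taurine transporter, was 78.8, 117 and 117 against 128, 275 and 148 (log2 change 0.79, adjusted p = 0.314, edgeR). These 3 had no overlap between groups, and over the list 4 of 10 were higher and 1 of 10 lower without overlap, beside 6.69 and 9.85% of all genes tested. In other settings Slc5a3 passed in 4 of 20 and Akr1b3 in 3 of 21. Hspb1, a small heat shock protein on the same list, was 147, 164 and 212 against 83.7, 86.4 and 129 (log2 change -0.79 ± 0.26 SE, adjusted p = 0.259, edgeR), lower without overlap. Slc14a2, the urea transporter UT-A of the inner medulla, was 52.0, 445 and 331 against 44.3, 1679 and 574 (log2 change 1.47, adjusted p = 0.472, edgeR). It came from 27 of 216 and 12 of 77 members, and a single barcode gave up to 80.3% of its UMIs in 1 mouse, so a few barcodes set its level.

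**Figure D4:**
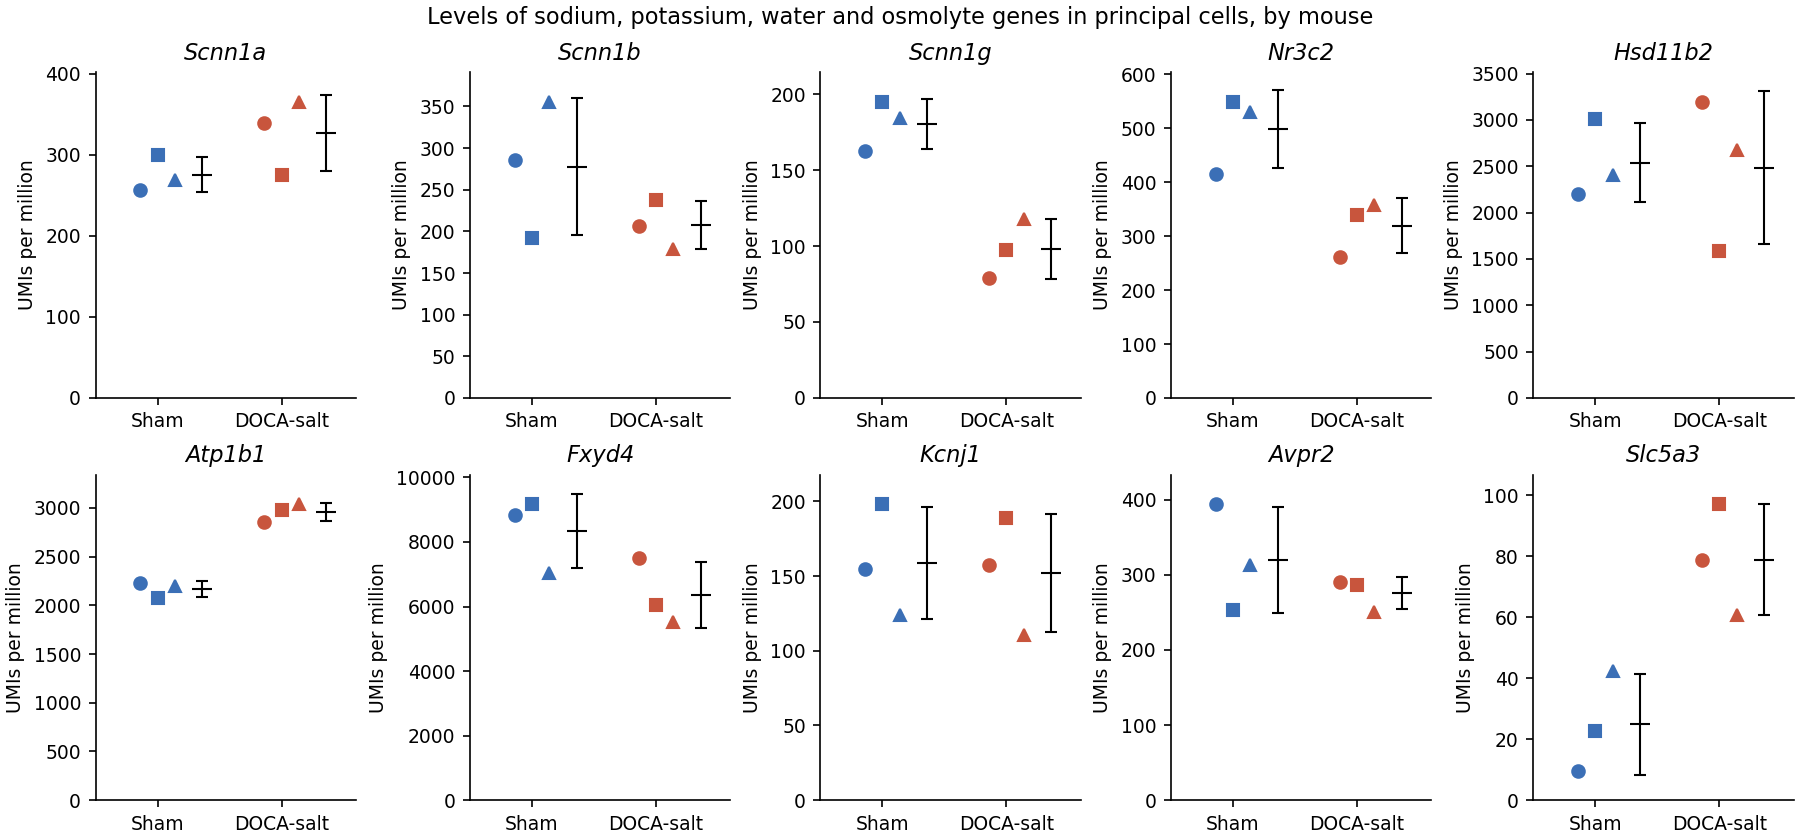
CPM of the members in each mouse, on linear axes from 0, for 10 transport and hormone genes, Scnn1a, Scnn1b, Scnn1g, Nr3c2, Hsd11b2, Atp1b1, Fxyd4, Kcnj1, Avpr2 and Slc5a3; circles, squares and triangles are mice 1, 2 and 3, and bars give the mean and SD. Scnn1g and Nr3c2 are lower and Atp1b1 and Slc5a3 higher in each DOCA-salt mouse, and none of the 10 passed an adjusted p of 0.05.

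Of the tested identity genes and transcription factors 0 of 9 and 0 of 15 passed, which at a call rate of 0.829% says nothing particular about them. The duct factors Gata3 (331, 387 and 220.2 CPM in sham members, 418, 238 and 327 in DOCA-salt members) and Tfcp2l1 (657, 608 and 579 against 669, 610.0 and 639) had log2 changes of 0.06 and 0.05. Tfap2b was 52.0, 61.7 and 52.2 against 34.5, 21.6 and 15.2 (log2 change -1.26, adjusted p = 0.187, edgeR), and Ehf, an epithelial ETS factor, was 370.4, 401 and 364 against 290.4, 254 and 217 (log2 change -0.59, adjusted p = 0.28, edgeR). The first pair overlapped between groups and the second did not, as for 16.5% of all genes tested.

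Of 17 tested genes of tubular injury and stress, 3 passed, all higher (Krt19, Lcn2 and Spp1, described above), beside 0.478% of all genes tested that passed as higher, and the median log2 change was 0.40 beside -0.07. Krt18, the partner keratin of Krt8, was 624, 664 and 767 CPM in sham members and 901, 831 and 1441 in DOCA-salt members (log2 change 0.62, adjusted p = 0.323, edgeR), and Clu, the chaperone clusterin, was 36.3, 50.4 and 191 against 221, 140.4 and 582 (log2 change 1.78, adjusted p = 0.158, edgeR). The Clu log2 change ran from 0.93 to 2.91 when 1 mouse was left out, and Clu passed in 3 of 21 other settings. Havcr1, the proximal injury marker KIM-1, had 0 UMIs in sham members and 1 in DOCA-salt members. The cytokine list had 1 gene higher (B2m) and 1 lower (Il34) of 13 tested, beside 0.478 and 0.351% of all genes tested.

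In energy metabolism 0 of 17 tested genes passed, too few to be read against 0.829% of all genes tested. Without overlap 6 were higher and 4 lower (6.69 and 9.85% of all genes tested), and the median log2 change was -0.14 beside -0.07. Ppargc1a, the coactivator of mitochondrial biogenesis, was 273, 269.7 and 284 CPM in sham members and 143, 157 and 156 in DOCA-salt members (log2 change -0.87 ± 0.21 SE, adjusted p = 0.0806, edgeR), and Pdk4, which holds back pyruvate oxidation, was 52.0, 40.6 and 60.3 against 24.6, 10.8 and 11.4 (log2 change -1.72 ± 0.44 SE, adjusted p = 0.0836, edgeR). Ldha, a lactate dehydrogenase subunit, was 433, 372 and 385 against 615, 615 and 662 (log2 change 0.66 ± 0.20 SE, adjusted p = 0.187, edgeR), and Pfkp, a phosphofructokinase, was 106, 94.2 and 103 against 148, 167 and 167 (log2 change 0.66 ± 0.23 SE, adjusted p = 0.271, edgeR). None of these 4 had overlapping groups. In other settings Ppargc1a passed with the same direction in 3 of 21 and Pdk4 in 4 of 20. Cgn, the tight junction protein cingulin, was 48.9, 30.9 and 34.2 against 78.7, 103 and 98.9 (log2 change 1.28 ± 0.30 SE, adjusted p = 0.0606, edgeR), and it passed in 3 of 20 other settings. Of 15 tested junction genes 0 were called, too few to be read against 0.829% of all genes tested.

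Of 24 purinergic and pannexin genes, 2 were above the count filter in principal cells. P2rx4, an ATP-gated channel, was 26.8, 32.5 and 35.9 CPM in sham members and 39.4, 27.0 and 38.0 in DOCA-salt members (log2 change 0.14, adjusted p = 0.936, edgeR), and Adora1, an adenosine receptor, was 67.8, 32.5 and 62.0 against 34.5, 43.2 and 34.2 (log2 change -0.56, adjusted p = 0.654, edgeR). Both overlapped between groups. Edn1, the autocrine peptide endothelin 1, was 28.4, 52.0 and 17.9 against 24.6, 43.2 and 7.61 (log2 change -0.49, adjusted p = 0.808, edgeR).

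For the lists with 0 calls that follow, 0.829% of all genes tested is the rate to compare with, and the lists are too short to be read against it. These were endothelin and nitric oxide (2 of 14 genes tested), prostaglandins (8 of 13), inflammasome and pyroptosis (4 of 13), growth factor and fibrosis (13 of 27), matrix and basement membrane (14 of 20), immediate early and dissociation genes (19 of 19), proliferation (2 of 15) and iron and antioxidant genes (16 of 20). Among markers of other cells 0 of 8 proximal, 0 of 1 thick limb, 0 of 1 distal convoluted, 0 of 4 intercalated and 0 of 1 macrophage genes passed, while 1 of 3 connecting tubule genes (Klk1, lower) and 1 of 1 fibroblast genes (Mgp, higher) did. The urothelium, endothelium, lymphocyte, smooth muscle, podocyte and red cell lists had 0 genes above the filter.

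Connecting tubule cells, the upstream neighbours, were compared in the same mice to ask where principal cells changed differently. They were defined by at least 2 UMIs each of Slc8a1 and Calb1, with the other exclusions as for principal cells, and numbered 888. Aqp2 was 2627 to 4213 CPM in them. The comparison was an interaction in edgeR with the mouse as a block, so each gene's difference between the 2 changes was tested within mice. Of 9899 genes 80 differed (0.808%), 14 with a higher change in principal cells (0.141%) and 66 with a lower one (0.667%). Connecting tubule cells on their own gave 1109 calls of 10310 genes (10.8%), and they had more cells and more UMIs per mouse than principal cells. Their median UMIs per cell were 10891.5, 9415 and 8855 in sham mice and 14533, 17972.5 and 12888 in DOCA-salt mice. Depth thus differed between the groups in these cells, and the differences were not refitted after thinning. Of the 52 genes called in principal cells 39 were also called in the same direction in connecting tubule cells and 1 in the opposite one, and of the 36 tested in type A intercalated cells 11 were called there in the same direction, from the same mice and libraries.

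Spp1 differed most among the higher genes. In connecting tubule cells it was 1869, 3823 and 2315 CPM in sham mice and 3558, 2713 and 4042 in DOCA-salt mice, overlapping and with a log2 change of 0.30 against 3.99 in principal cells. The difference of the log2 changes was 3.70 (adjusted p = 8.44e-10, edgeR). Principal cells of sham mice thus lay far below their neighbours and those of DOCA-salt mice reached the same range. Angpt1 moved in opposite directions, as connecting tubule cells went from 97.3, 163 and 129.5 to 50.2, 34.2 and 70.4 (log2 change -1.43 against 1.92, difference 3.31, adjusted p = 1.82e-05, edgeR). Spink8 was 249, 172 and 205 against 312, 403 and 295 in connecting tubule cells (difference 1.73, adjusted p = 3.61e-05, edgeR). Gpc5, a glypican, was 139, 260 and 192 in sham members and 68.9, 103 and 11.4 in DOCA-salt members, and went from 297, 424 and 347 to 34.9, 31.3 and 18.4 in connecting tubule cells (difference 1.97, adjusted p = 0.00661, edgeR).

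On the lower side were Elf5, AU021092 and Dcdc2a, which connecting tubule cells gained (edgeR adjusted p = 0.00137, 0.00458 and 4.33e-06 there), and Fxyd4, which did not pass there. Elf5, an ETS factor of principal cells, was 107, 219 and 76.7 CPM in sham members and 64.0, 81.0 and 72.3 in DOCA-salt members, while connecting tubule cells went from 10.5, 17.6 and 9.89 to 64.3, 37.2 and 36.9 (difference -2.63, adjusted p = 6.84e-05, edgeR). AU021092 followed the same order, at 249, 149 and 126 against 118, 157 and 79.9 in principal cells and 2.21, 4.63 and 5.18 against 21.3, 40.2 and 10.9 in connecting tubule cells (difference -2.94, adjusted p = 0.000185, edgeR). In both genes the pooled connecting tubule cells of DOCA-salt mice lay nearer the level of principal cells than those of sham mice. Whether different cells met the connecting tubule definition in the DOCA-salt mice was not tested. Dcdc2a, a doublecortin-family protein, was 9.46, 16.2 and 22.8 against 44.3, 37.8 and 79.9 in principal cells and 2.21, 2.32 and 5.65 against 70.9, 103 and 129 in connecting tubule cells (difference -3.02, adjusted p = 0.00081, edgeR). Fxyd4 had a log2 change of -0.41 in principal cells and 0.27 in connecting tubule cells (adjusted p = 0.37 there, difference -0.67 ± 0.15 SE, adjusted p = 0.0348, edgeR).

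Injury genes did not separate the cell types in 1 direction. Lcn2 rose in both, with connecting tubule cells going from 91.8, 48.2 and 44.7 to 368, 547 and 398 (difference -1.06 ± 0.19 SE, adjusted p = 0.00481, edgeR). Krt19 had log2 changes of 3.71 and 5.97 in principal and connecting tubule cells, and the difference of -2.17 ± 0.61 (SE) did not pass (adjusted p = 0.113, edgeR). Scnn1g was 162 to 195 against 78.7 to 118 in principal cells and 342 to 381 against 176 to 188 in connecting tubule cells, where it passed (log2 change -1.06, adjusted p = 0.000275, edgeR). The difference between the Scnn1g changes was 0.20 ± 0.25 (SE, adjusted p = 0.847, edgeR), so the call in 1 cell type and not in the other is no shown difference. Slit2 likewise had log2 changes of -2.24 and -2.14, with a difference of -0.09 ± 0.34 (SE, adjusted p = 0.958, edgeR).

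**Figure D5:**
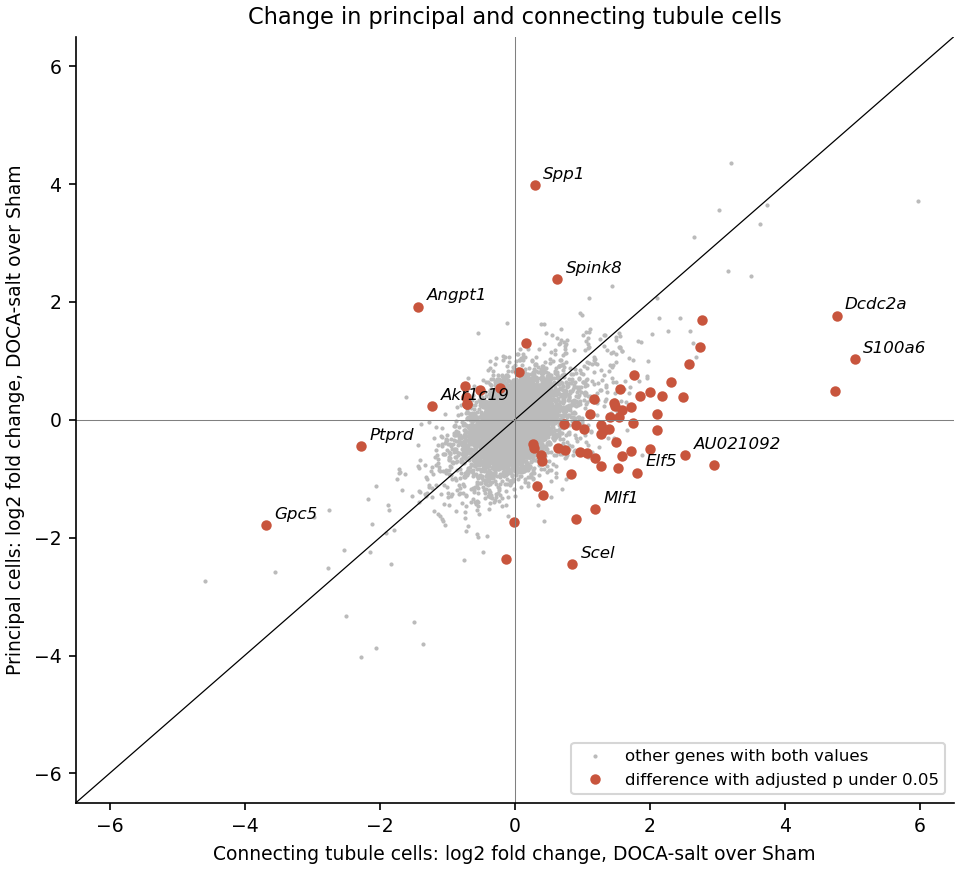
Log2 change from sham to DOCA-salt in connecting tubule cells (x axis) and in principal cells (y axis) for genes with a value in both; coloured points passed an adjusted p of 0.05 for the difference of the changes, and the diagonal marks equal change. Spp1 and Angpt1 lie above the diagonal, with 3.99 and 1.92 in principal cells against 0.30 and -1.43 in connecting tubule cells, and Elf5 and Dcdc2a lie below it.

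Type A intercalated cells were the intercalated barcodes with at least 1 UMI of the bicarbonate exchanger gene Slc4a1 and none of Slc26a4, 100, 66 and 83 in sham mice and 94, 101 and 135 in DOCA-salt mice. They gave 45 differences in 9099 genes (0.495%), 18 higher (0.198%) and 27 lower (0.297%) in principal cells, beside 158 calls of 9239 genes (1.71%) of their own. Flvcr1 was 47.6, 33.0 and 60.9 CPM in sham and 35.7, 35.1 and 45.3 in DOCA-salt type A cells, against its rise in principal cells (difference 2.33, adjusted p = 0.00154, edgeR). Niban1, a stress-response protein, was 121, 218 and 166 against 310.1, 453 and 605 in principal cells and 85.1, 105 and 125 against 79.0, 75.8 and 77.4 in type A cells (difference 1.84, adjusted p = 0.0018, edgeR). Spp1 rose in both, by a log2 change of 1.95 in type A cells (difference 2.12, adjusted p = 1.91e-05, edgeR). In connecting tubule cells Flvcr1 rose too, from 39.2, 55.1 and 35.3 to 90.5, 103.9 and 97.2 (adjusted p = 0.00149, edgeR), and its difference from principal cells did not pass (adjusted p = 0.179, edgeR). Flvcr1 and Niban1 passed in principal cells and did not in type A cells, where their log2 changes were -0.27 and -0.39 (adjusted p = 0.724 and 0.372, edgeR).

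Erbb4 was 131, 129 and 141 CPM in sham and 122, 212 and 156 in DOCA-salt type A cells, with a log2 change of 0.32 against -2.36 in principal cells (difference -2.64 ± 0.34 SE, adjusted p = 0.00017, edgeR). In connecting tubule cells Erbb4 was 211, 330.4 and 288 against 239, 272 and 279.9 (difference -2.23 ± 0.30 SE, adjusted p = 0.000178, edgeR). Among the genes compared with both neighbours, Erbb4 thus differed from each of them. Mt2, a metallothionein, had a log2 change of -0.04 in principal cells and went from 11.7, 15.8 and 13.0 to 94.96, 48.9 and 96.4 in type A cells (difference -2.55, adjusted p = 0.00426, edgeR).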

How the data were processed

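Kidney cells of 6 mice were profiled by droplet-based 3′ single-cell RNA sequencing, 1 library per mouse. The deposited values are UMI counts per gene and barcode, made by the authors with Cell Ranger (8.0.1 in the file headers, 9.0.0 in the submitters' processing notes) on GRCm39. Seurat 4.0.0 and R 4.0.3 are also named in those notes. Repeated reads of 1 molecule count once, and free RNA of broken cells stays in the counts.

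Members were selected by the definition in the text, and the lists of genes (34 lists, 422 entries) and the members were chosen with earlier results of these data known. Counts were summed per mouse, filtered with filterByExpr, scaled by TMM and tested in edgeR 4.0.16 (R 4.3.3, limma 3.58.1) by the quasi-likelihood test with Benjamini-Hochberg adjustment, and SE is the fold divided by the root of F. Values per mouse are unscaled UMI counts per 1000000 UMIs (CPM). Shares were compared by exact two-sided permutation tests (scipy 1.17.1). Differences between cell types used an interaction with the mouse as a block. DESeq2 1.42.0 was an alternative, and the fits were tested on simulated counts. Likely doublets, the top 0.8% of Scrublet scores (scanpy 1.11.5) per 1000 barcodes, were kept in the main analysis, and 9 members had such scores. Named were the list genes, the 12 largest rises and 12 largest falls, and the 6 largest differences each way with at least 20 CPM; some genes are not reported here, and other called genes were chosen after their values were seen. Mouse numbers were not used to pair the groups, which are separate mice.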

Additional observations from a re-analysis of the deposited data

Results flagged for a closer look

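The change from sham to DOCA-salt differed between principal cells and a neighbouring cell type for the genes below, by an interaction in edgeR with the mouse as a block. Each value is the log2 change in principal cells minus that in the neighbour, and the genes are those with the 6 largest differences each way among named nuclear genes outside the definition that averaged at least 20 CPM in principal cells and passed an adjusted p of 0.05.

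Against connecting tubule cells, values were higher for Spp1 (3.70), Angpt1 (3.31), Gpc5 (1.97), Ptprd (1.87), Spink8 (1.73) and Akr1c19 (1.48). Ptprd, a receptor phosphatase, was 66.2, 63.4 and 127 CPM in sham members and 49.2, 86.4 and 57.0 in DOCA-salt members, and went from 317, 353 and 355 to 82.9, 59.1 and 81.3 in connecting tubule cells. Values were lower for S100a6 (-4.06), Scel (-3.15), Dcdc2a (-3.02), AU021092 (-2.94), Mlf1 (-2.73) and Elf5 (-2.63). S100a6, a calcium-binding protein, varied widely among members of the same group, at 15.8, 728 and 113 against 73.8, 189 and 1434, and rose in connecting tubule cells from 15.5, 5.56 and 5.65 to 162, 201 and 556.

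Against type A intercalated cells, values were higher for Slc14a2 (6.32), Angpt1 (3.00), Flvcr1 (2.33), Spp1 (2.12), Sema3c (1.89) and Niban1 (1.84). Without sham mouse 3 the Slc14a2 value was 2.27 and did not pass, as type A cells held 3.12, 1.44 and 309 CPM in sham mice and 1.52, 4.13 and 0.656 in DOCA-salt mice. Sema3c, a secreted guidance protein, was 50.4, 91.0 and 60.3 against 103, 205 and 198 in principal cells and 74.97, 77.5 and 85.9 against 56.2, 36.5 and 66.9 in type A cells. Values were lower for Tmem52b (-3.95), Nrp1 (-3.34), Cald1 (-2.65), Erbb4 (-2.64), Mt2 (-2.55) and Nbea (-2.49). Cald1, an actin-binding protein, was 67.8, 60.1 and 76.7 against 68.9, 16.2 and 57.0 in principal cells and 6.25, 1.44 and 10.9 against 47.9, 28.3 and 12.5 in type A cells.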

How the results depend on the processing

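Of the 52 genes called in principal cells, 48 kept their direction in each of the 21 settings that gave them a value. Past the threshold in each of those stayed 8, of which 2 had a value in all 21. The share of principal cells was lower in DOCA-salt mice in every setting run, with a log2 ratio of -1.41 to -1.80 when a mouse was left out, which leaves a design whose smallest exact p is 0.2. Higher and lower genes numbered 100 and 78 without the count filter, 51 and 22 with 1 Aqp2 UMI, 19 and 25 at 20% mitochondrial UMIs, 2 and 3 after thinning (777 genes tested), 475 and 355 without the Slc8a1 limit (10764 genes tested), 39 and 17 with DESeq2, and 8 to 37 and 6 to 37 without 1 mouse. The cause of the Slc8a1 shift was not tested.

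Mouse numbers were not used to pair the samples. Same-numbered mice had deviations correlated at -0.23, -0.32 and 0.07 over 3534 genes, and other pairs at -0.26 to 0.35. The labels name no batch, and whether libraries of the same number shared one was not tested. With a replicate block, 12 genes were higher and 9 lower.

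Differences from connecting tubule cells numbered 45 higher and 120 lower without the count filter, and 6 to 50 and 32 to 71 without 1 mouse. For type A intercalated cells they were 33 and 55 without the filter, 8 higher at 20% mitochondrial UMIs, and 5 to 19 and 9 to 23 without 1 mouse.

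Log2 changes turned sign without the Slc8a1 limit for Angpt1 (-0.25), Tubb4b (0.12), Il34 (0.10), Prss8 (0.28), Fxyd4 (0.041) and Avpr2 (0.39), and with 1 Aqp2 UMI for Klk1 (1.13), Scnn1a (-0.076), Sgk1 (-0.44), Prss8 (0.019) and Pdk4 (1.59). Scnn1a was -0.34 after thinning, and Hsd11b2 was 0.039 both with DESeq2 and with its size factors in edgeR. Without 1 mouse the ranges crossed 0 for Sgk1 (-0.18 to 0.51), Tsc22d3 (-0.014 to 0.71), Hsd11b2 (-0.23 to 0.18) and Kcnj1 (-0.29 to 0.10). Of the uncalled transport and hormone genes, Scnn1g, Nedd4l, Nr3c2 and Sgk1 each passed in 1 other setting with the same direction. Scnn1a, Scnn1b, Tsc22d3, Hsd11b2, Prss8, Atp1b1, Fxyd4, Kcnj1 and Avpr2 did so in none. The causes were not tested. The 21 to 32 members per DOCA-salt mouse limit the precision for genes with few UMIs.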

Other observations

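Several genes outside the lists also passed in principal cells, and they were picked here after their values were seen. Egln3, a prolyl hydroxylase of the hypoxia-inducible factors, was 25.2, 16.2 and 19.6 CPM in sham members and 73.8, 91.8 and 45.6 in DOCA-salt members (log2 change 1.73 ± 0.37 SE, adjusted p = 0.034, edgeR). Myof, a membrane repair protein, was 66.2, 97.5 and 103 against 148, 221 and 259 (log2 change 1.24 ± 0.27 SE, adjusted p = 0.0382, edgeR). Endod1 was 53.6, 66.6 and 55.4 against 128, 140.4 and 167 (log2 change 1.31 ± 0.25 SE, adjusted p = 0.0182, edgeR). Emp2, an epithelial membrane protein, was 0, 3.25 and 4.89 against 29.5, 27.0 and 45.6, from 5 UMIs in sham and 23 in DOCA-salt members (adjusted p = 0.0192, edgeR). In each of these genes the lowest DOCA-salt mouse was above the highest sham mouse. The Egln3 call was lost whichever of the 6 mice was left out (log2 change 1.48 to 1.97), and those of Myof and Endod1 were lost in 4 of these 6 fits. Emp2 had a value in 3 of these fits, and its call was lost without DOCA-salt mouse 2 or 3.

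Fuca2, a secreted fucosidase, was 118, 122 and 91.3 against 226, 189 and 262 (log2 change 1.03 ± 0.23 SE, adjusted p = 0.0416, edgeR), and Noct, a circadian nicotinamide dinucleotide phosphatase, was 82.0, 161 and 155 against 281, 297 and 304 (log2 change 1.14 ± 0.26 SE, adjusted p = 0.0472, edgeR). Among falls, Tubb4b, a β-tubulin, was 200.2, 190.1 and 217 against 103, 70.2 and 79.9 (log2 change -1.27 ± 0.24 SE, adjusted p = 0.0174, edgeR), and Map3k5, the stress kinase ASK1, was 93.0, 78.0 and 53.8 against 9.84, 21.6 and 30.4 (log2 change -1.80 ± 0.41 SE, adjusted p = 0.0472, edgeR). The groups did not overlap in any of these 4 genes. With 1 mouse left out, the calls of Fuca2, Noct and Map3k5 were each lost in 5 of 6 fits and that of Tubb4b in 4, and the log2 change ran from 0.90 to 1.30 for Noct and from -2.28 to -1.46 for Map3k5. When 1 Aqp2 UMI sufficed, the log2 change was 0.59 for Noct and -0.37 for Map3k5, without a call.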
